A study of Mus musculus with 4 samples.

Results

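Protein phosphatase subunits of the families PP1, PP2A, PP4, PP5, PP6 and calcineurin were measured by RIP-Chip, in which RNA that comes down with a protein is hybridized to a microarray. A probe set was a member when the array annotation gave it exactly 1 gene whose symbol joins *Ppp* and the digit of its family to c (catalytic) or r (regulatory). A pair of PP1 regulatory genes with symbols of this form was not analysed here. The rule took 85 probe sets for 72 genes, of 21044 probe sets (19452 genes) that name 1 gene. A further 4 probe sets, which name *Ppp1r2* together with a pseudogene, were left out.

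RNA came from immunoprecipitates made with the monoclonal antibody 3B1 against CUGBP1 (CUGBP1 IP, 2 arrays) or from those made with normal IgG (control IgG, 2 arrays). Both used the cytoplasmic lysate of growing C2C12 (LKO1) cells. C2C12 cells are mouse myoblasts, and LKO1 is a stable derivative that carries an empty lentiviral vector under puromycin, so all 4 arrays describe 1 cultured line. Input RNA was not analysed here, and abundance in the lysate and association with CUGBP1 cannot be told apart from the level in the immunoprecipitate alone.

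Protein phosphatases of this group remove phosphate from serine and threonine. A small number of catalytic subunits is shared among many regulatory subunits, which place the enzyme at a substrate or inhibit it. PP1 pairs 1 catalytic subunit with 1 of many regulators, PP2A joins a catalytic subunit to a scaffold and a variable B subunit, and calcineurin joins its catalytic subunit to a calcium-binding subunit. In muscle, PP1 acts on myosin and on glycogen enzymes, and calcineurin dephosphorylates NFAT transcription factors. CUGBP1, the product of *Celf1*, binds GU-rich elements in RNA and is known for promoting mRNA decay.

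Values are linear intensities divided by the 5th percentile of the same array, so a probe set without transcript reads about 1. Different probe sets differ in brightness for the same amount of RNA, and levels were therefore compared only within a probe set. Probe sets of 1205 olfactory and vomeronasal receptor entries served as background. Their 95th percentile was 1.23 and 1.29 in CUGBP1 IP versus 1.09 and 1.16 in control IgG. The median probe set read 1.31 and 1.5 in CUGBP1 IP versus 1.08 and 1.22 in control IgG, so the CUGBP1 IP arrays were the brighter ones. Control IgG replicate 2 was brighter than control IgG replicate 1, and Pearson's r of log2 values was 0.943 between them and 0.981 between the CUGBP1 IP arrays (over probe sets, which do not count as replicates). Of the 6 myoblast markers, 4 were above background on all 4 arrays. The summed level of the 6 was 112 and 153 in CUGBP1 IP versus 40.8 and 112 in control IgG. Most of this sum was *Vim*, with 77.89 and 114.15 in CUGBP1 IP versus 32.14 and 98.05 in control IgG. The sum therefore says little of the other markers, of which *Msc* and *Cdh15* were above background on 3 arrays. Differentiated muscle markers were above background on all 4 arrays for 1 of 6 genes, epithelial markers for 1 of 4, neuronal markers for 1 of 4 and blood markers for 0 of 2.

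To see which phosphatase transcripts were more abundant in the CUGBP1 immunoprecipitate, the signal-to-negative ratio was computed for each probe set as the mean of the immunoprecipitates over the mean of their controls, the measure by which the study ranked transcripts. The ratios of 3 subunits were far above those of the others. *Ppp2r1a*, the common scaffold of PP2A, had a ratio of 9.74, *Ppp3cb*, a catalytic subunit of calcineurin, had 8.70, and *Ppp1cb*, a catalytic subunit of PP1, had 7.23. *Ppp6c*, the catalytic subunit of PP6, had 3.06, and no other member was above 3. The median member had a ratio of 1.43, against 1.22 over all probe sets that name 1 gene, and the members ranged between 0.967 and 9.74.

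The study took the top 5% of its ranked transcripts as associated with CUGBP1. Over the probe sets used here the limit of the top 5% lay at 2.57. The limit of the study itself was higher and was set over fewer transcripts. Membership in the top 5% at ratios of 2.60 to 2.70 holds for the limit used here. Of the 85 members, 9 probe sets of 8 genes were past 2.57 (10.6%), where 5.0% of all probe sets were. Just inside were *Ppp1cc* at 2.64 and *Ppp2r5c* at 2.60, and just outside were *Ppp1r18* at 2.47 and *Ppp1r2* at 2.46. The immunoprecipitates were both above both controls for 61 members (71.8%), against 66.3% of all probe sets, a share near the background. Both were below for 2 members, against 0.95% of all probe sets, and the groups overlapped for the remaining 22. Above background on all 4 arrays were 55 members (64.7%), against 36.7% of all probe sets, and 13 were in background on all 4. When only probe sets above background on all 4 arrays were ranked, the limit of the top 5% lay at 4.01. Past that limit were 3 of the 55 members, so the larger share of members in the top 5% was not seen there. Both control IgG values were in background for 18 members, and of these only *Ppp1r13b* and *Ppp1r3f* were above background on both CUGBP1 IP arrays, at least 1.18-fold and 1.31-fold higher there when set against the upper end of the control background.

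A moderated test with limma, fitted over all 21044 probe sets, called 0 members higher and 0 lower at an adjusted p under 0.05, while 1.95% of all probe sets were called higher and 0.138% lower. At an unadjusted p under 0.05, 27 members were higher and 0 lower, against 28.6% of all probe sets higher, again a share near the background (31.8% of the members). The lowest adjusted p of any member was 0.0550, at 1 probe set of *Ppp2r5c*. With 2 arrays a group, an exact permutation test of a single probe set cannot give a two-sided p below 0.333. The error of this test followed the trend over probe sets of similar brightness, not the spread of each probe set by itself. An SE given below is therefore that of probe sets of its brightness. Nothing in the labels says that the arrays came from separate cultures. The error thus holds only the spread between these arrays, which may be technical. The ratios of members below are measured values that the test did not separate from this error on the values as deposited.

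**Figure D1:**
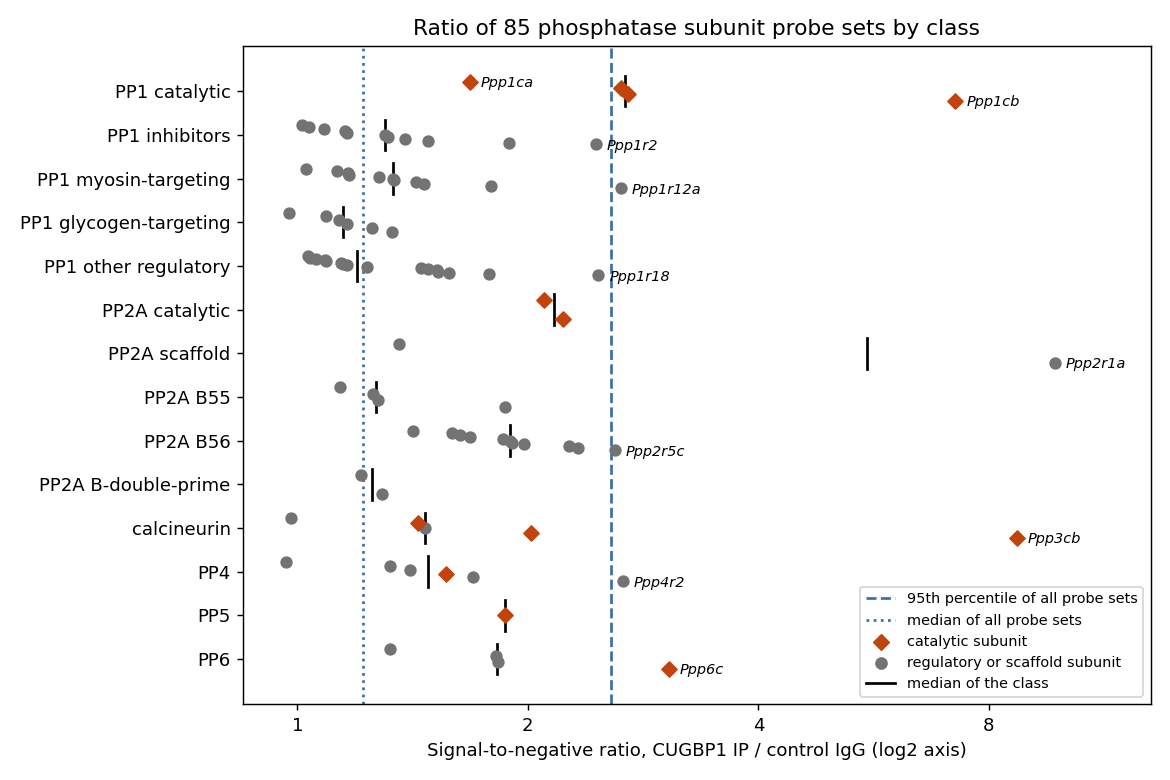
Signal-to-negative ratio (mean of 2 CUGBP1 IP arrays over mean of 2 control IgG arrays, log2 axis) of the 85 phosphatase subunit probe sets, 1 point each, in rows by class with the class median as a black bar. Dashed and dotted lines mark the 95th percentile (2.57) and the median (1.22) of all probe sets, and *Ppp2r1a*, *Ppp3cb* and *Ppp1cb* lie apart at ratios of 7.23 to 9.74.

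The catalytic subunits were detected throughout. All 12 catalytic probe sets (11 genes) were above background on all 4 arrays, against 43 of 73 for the regulatory and scaffold subunits, and 5 of the 12 were in the top 5%, against 4 of 73. The 5 stand for 4 genes, because 2 of them are probe sets of *Ppp1cc*. When only probe sets above background on all 4 arrays were ranked, *Ppp1cb* and *Ppp3cb* were the only catalytic subunits in the top 5%. The median ratio of the catalytic probe sets was 2.16, against 1.33 for the regulatory and scaffold subunits. Relative to the median log2 difference of all probe sets (0.29, CUGBP1 IP minus control IgG), the median log2 difference was 0.95 for the catalytic and 0.15 for the regulatory and scaffold subunits, but under quantile normalization, which gives all arrays the same distribution of values, these became -0.050 and -0.023. Without control IgG replicate 1 the median of the catalytic subunits was 0.42, without control IgG replicate 2 it was 1.57, and among probe sets above background on all 4 arrays it was 0.51. The higher class median of the catalytic subunits was thus absent under quantile normalization, and the part of the brightness of the arrays in these medians was not tested.

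Among the 3 PP1 catalytic genes, whose products are close in sequence and share most regulators, *Ppp1cb* stood apart. It read 29.2 and 38.2 in CUGBP1 IP versus 3.23 and 6.09 in control IgG, a log2 difference of 2.91 with an SE of 1.34 (limma adjusted p = 0.149). Both immunoprecipitates were far above both controls, and the ratio was 10.4 against control IgG replicate 1 alone and 5.53 against replicate 2 alone. *Ppp1cc* has 2 probe sets, which read 8.20 and 14.6, and 8.29 and 13.8, in CUGBP1 IP versus 2.53 and 5.91, and 2.44 and 5.91, in control IgG. The groups did not overlap at either probe set, and the ratios were 2.70 and 2.64 (limma adjusted p = 0.284 and 0.282). They were 4.51 and 4.52 against control IgG replicate 1 alone, 1.93 and 1.87 against replicate 2 alone, and at the 33.5th and 33.0th percentile under quantile normalization. *Ppp1ca* read 15.9 and 26.0 in CUGBP1 IP versus 5.28 and 19.6 in control IgG. Control IgG replicate 2 lay within the range of the immunoprecipitates, so that the ratio of 1.68 was 3.96 against control IgG replicate 1 alone and 1.06 against replicate 2 alone (limma adjusted p = 0.533).

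The PP2A catalytic subunits *Ppp2ca* and *Ppp2cb* encode nearly identical proteins, and their ratios were close. *Ppp2ca* read 5.39 and 7.34 in CUGBP1 IP versus 1.81 and 4.25 in control IgG, a ratio of 2.10 and a log2 difference of 1.18 with an SE of 0.84 (limma adjusted p = 0.272). *Ppp2cb* read 6.37 and 7.65 in CUGBP1 IP versus 1.78 and 4.52 in control IgG, a ratio of 2.23 and a log2 difference of 1.30 with an SE of 0.88 (limma adjusted p = 0.255). Both were outside the top 5%, although neither overlapped between groups. Against control IgG replicate 1 alone the ratios of *Ppp2ca* and *Ppp2cb* were 3.52 and 3.94, and against replicate 2 alone 1.5 and 1.55.

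Of the 3 calcineurin catalytic subunits, *Ppp3cb* read 14.0 and 21.5 in CUGBP1 IP versus 1.42 and 2.66 in control IgG, a log2 difference of 3.16 with an SE of 1.05 (limma adjusted p = 0.0685). The lower immunoprecipitate was several times the higher control, and the ratio was 12.5 against control IgG replicate 1 alone and 6.67 against replicate 2 alone. *Ppp3cc*, a form known mainly from testis, read 2.91 and 4.15 in CUGBP1 IP versus 1.16 and 2.34 in control IgG (limma adjusted p = 0.147), and its ratio of 2.02 was 3.04 against control IgG replicate 1 alone and 1.51 against replicate 2 alone. *Ppp3ca*, a form widely expressed in muscle and brain, read 1.84 and 1.91 in CUGBP1 IP versus 1.17 and 1.44 in control IgG (limma adjusted p = 0.177, ratio 1.44). The calcium-binding subunit *Ppp3r1* was similar, with a ratio of 1.47 that did not reach the top 5%. Its testis counterpart *Ppp3r2* was in background on all 4 arrays and had the lowest ratio of the family, with 0.99 and 0.97 in CUGBP1 IP versus 1.03 and 0.97 in control IgG.

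The catalytic subunits of the PP2A-like enzymes PP4 and PP6, and that of PP5, differed in ratio. *Ppp6c* read 5.0 and 4.85 in CUGBP1 IP versus 1.25 and 1.97 in control IgG, a ratio of 3.06 and a log2 difference of 1.65 with an SE of 0.58 (limma adjusted p = 0.0837). Its 2 immunoprecipitate values were close together and both exceeded the controls. *Ppp5c*, a phosphatase that carries its own regulatory domain, read 2.53 and 3.60 in CUGBP1 IP versus 1.22 and 2.06 in control IgG (limma adjusted p = 0.155, ratio 1.87). *Ppp4c* read 3.71 and 4.35 in CUGBP1 IP versus 1.41 and 3.75 in control IgG (limma adjusted p = 0.313, ratio 1.56). As with *Ppp1ca*, the *Ppp4c* groups overlapped through control IgG replicate 2, and the ratio was 2.86 against control IgG replicate 1 alone and 1.07 against replicate 2 alone.

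**Figure D2:**
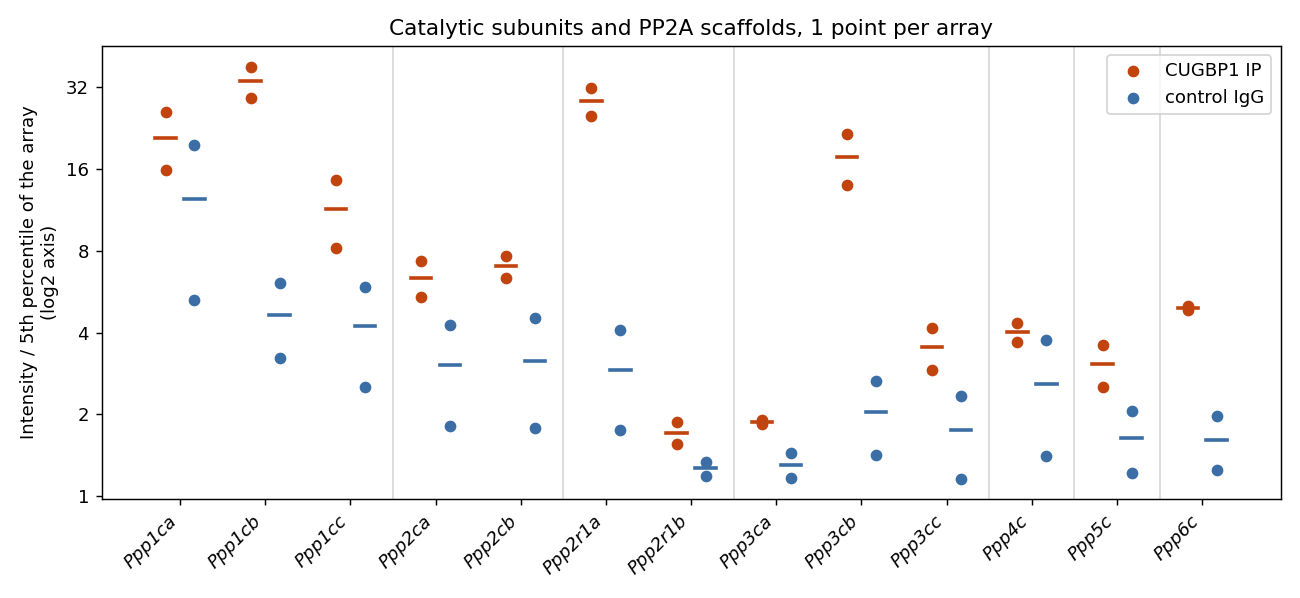
Intensity relative to the 5th percentile of the array (log2 axis) for the catalytic subunits and the PP2A scaffolds, with 1 point per array, bars at the group means, CUGBP1 IP left and control IgG right of each gene, and the probe set of highest mean for *Ppp1cc*. *Ppp1cb*, *Ppp2r1a* and *Ppp3cb* show the widest gaps between groups, while *Ppp1ca* and *Ppp4c* overlap.

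The PP2A scaffold subunits, on which the holoenzyme is built, showed the widest contrast between 2 related genes. *Ppp2r1a* read 25.2 and 31.7 in CUGBP1 IP versus 1.75 and 4.09 in control IgG, a log2 difference of 3.40 with an SE of 1.24 (limma adjusted p = 0.0924). Both immunoprecipitates were far above both controls, and the ratio was 16.3 against control IgG replicate 1 alone and 6.96 against replicate 2 alone. *Ppp2r1b*, the second scaffold gene, read 1.56 and 1.87 in CUGBP1 IP versus 1.19 and 1.34 in control IgG, which were closer but did not overlap (limma adjusted p = 0.202, ratio 1.36).

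Because a change in the scale of an array cancels when 2 probe sets of that array are set against each other, the log2 ratio of related genes was compared between groups for 8 pairs. The level of such a ratio depends on the probes, and only its difference between groups was read. The background level near 1 does not cancel in this way. In control IgG, *Ppp2r1b* (1.19 and 1.34) and *Ppp3ca* (1.17 and 1.44) read close to the background limits of 1.09 and 1.16. So did *Ppp3cc* on control IgG replicate 1 only (1.16, against 2.34 on replicate 2). How far this bears on the differences of their pairs was not tested. The pairs were chosen with their values known and are described without a test. The log2 ratio of *Ppp2r1a* over *Ppp2r1b* was 4.01 and 4.09 in CUGBP1 IP versus 0.56 and 1.61 in control IgG, a difference of 2.97. That of *Ppp3cb* over *Ppp3ca* was 2.92 and 3.50 in CUGBP1 IP versus 0.28 and 0.89 in control IgG, a difference of 2.63. For *Ppp3cb* over *Ppp3cc* the difference was 2.08, for *Ppp1cb* over *Ppp1ca* 1.92 and for *Ppp1cb* over *Ppp1cc* 1.41. In these 5 pairs the immunoprecipitates were both above both controls, so the gene named first read higher relative to its counterpart than it did in control IgG. *Ppp1cc* over *Ppp1ca* differed by 0.51 without overlap. *Ppp2cb* over *Ppp2ca* differed by 0.12, with the log2 ratio at 0.24 and 0.060 in CUGBP1 IP versus -0.024 and 0.089 in control IgG, and *Ppp3cc* over *Ppp3ca* differed by 0.55, and both of these pairs overlapped.

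**Figure D3:**
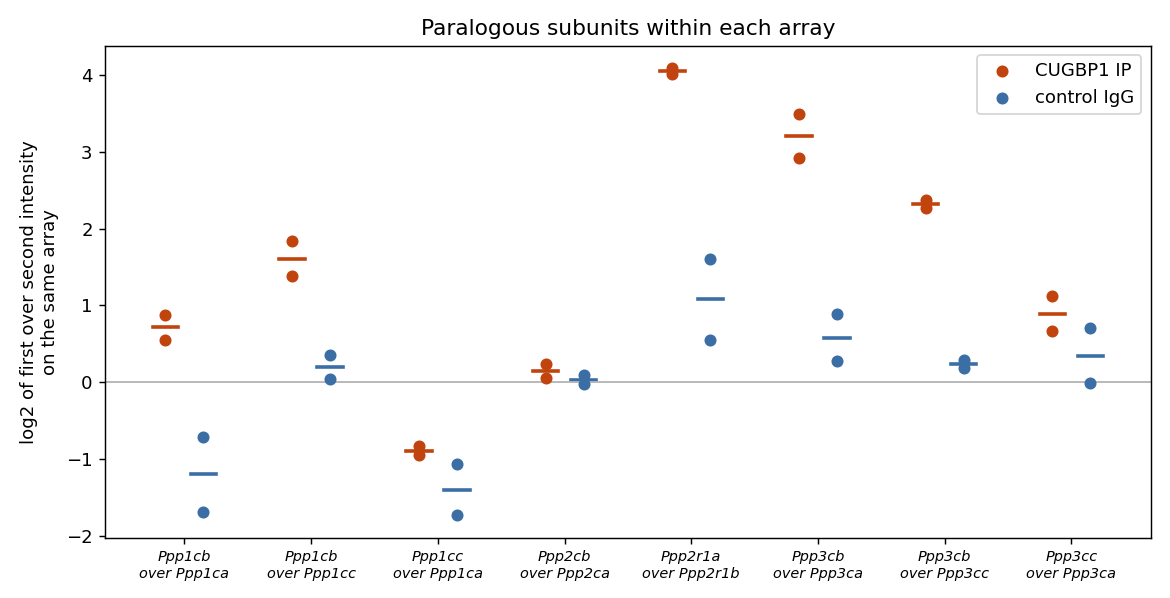
Log2 of the first over the second intensity on the same array for 8 pairs of related subunits, with 1 point per array, bars at the group means, and CUGBP1 IP left of control IgG. The groups lie apart by 1.41 to 2.97 on the log2 scale for the pairs led by *Ppp1cb*, *Ppp2r1a* and *Ppp3cb*, and overlap for *Ppp2cb* over *Ppp2ca* and *Ppp3cc* over *Ppp3ca*.

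The 44 probe sets of PP1 regulatory subunits (38 genes) lay close to the array as a whole, with a median ratio of 1.24 against 1.22 over all probe sets. Only 1 of them, *Ppp1r12a*, was in the top 5%. The groups did not overlap, with the immunoprecipitates above, for 29 (65.9%), the background share of 66.3%, and 10 were in background on all 4 arrays. *Ppp1r12a*, which encodes the targeting subunit MYPT1 of myosin phosphatase, read 4.29 and 3.38 in CUGBP1 IP versus 1.34 and 1.56 in control IgG, a ratio of 2.64 and a log2 difference of 1.40 with an SE of 0.48 (limma adjusted p = 0.0781). The other myosin-targeting genes had lower ratios, 1.79 for *Ppp1r16a*, 1.46 for *Ppp1r12c* and 1.17 for *Ppp1r16b*. *Ppp1r12b*, the MYPT2 gene of striated muscle, has 7 probe sets, and their ratios ranged between 1.03 and 1.43. The lowest of them read 1.16 and 1.18 in CUGBP1 IP versus 1.03 and 1.25 in control IgG, with overlapping groups.

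Genes of PP1 inhibitors had a median ratio of 1.30 over 11 genes, and none was in the top 5%. *Ppp1r2*, which encodes inhibitor-2, was the highest at 2.46, with 3.97 and 6.76 in CUGBP1 IP versus 1.59 and 2.78 in control IgG (limma adjusted p = 0.179). The 4 probe sets that also name its pseudogene read between 3.20 and 6.18 in the CUGBP1 IP and between 1.34 and 2.69 in control IgG, and transcripts of the copies cannot be told apart by such probes. The lowest, *Ppp1r17*, a protein kinase G substrate of cerebellum, was in background, with 1.00 and 1.03 in CUGBP1 IP versus 1.03 and 0.97 in control IgG. *Ppp1r14b*, an inhibitor of the CPI-17 family that was picked after its values were seen, gave 48.6 and 69.4 in CUGBP1 IP versus 18.1 and 61.6 in control IgG. It was well detected in both kinds of precipitate with overlapping groups, and its ratio of 1.48 was 3.26 against control IgG replicate 1 alone and 0.959 against replicate 2 alone.

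Glycogen-targeting subunits, which bring PP1 to glycogen particles, had a median ratio of 1.15 over 6 genes, and 1 of the 6 was above background on all 4 arrays. *Ppp1r3f* was the highest, with 1.34 and 1.60 in CUGBP1 IP versus 1.08 and 1.13 in control IgG (limma adjusted p = 0.141). The striated muscle form *Ppp1r3a* was in background on all 4 arrays, with 1.03 on both CUGBP1 IP arrays versus 1.06 and 1.05 in control IgG. It was 1 of the 2 members whose CUGBP1 IP arrays were both below both controls, by a margin of the last decimals of background values. The remaining 16 PP1 regulators had a median ratio of 1.20. *Ppp1r18*, which encodes the actin-associated phostensin, was the highest of them, with 3.24 and 4.13 in CUGBP1 IP versus 1.31 and 1.67 in control IgG (limma adjusted p = 0.0912, ratio 2.47). *Ppp1r9a*, which encodes the neuronal neurabin, was the lowest and in background, with 1.14 and 1.13 in CUGBP1 IP versus 1.06 and 1.14 in control IgG.

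The variable B subunits of PP2A, which choose its substrates, differed by family on the values as deposited. The 11 probe sets of the 5 B56 genes had a median ratio of 1.89. With the brightest probe set of each gene, the ratios of *Ppp2r5c*, *Ppp2r5e*, *Ppp2r5a*, *Ppp2r5d* and *Ppp2r5b* were 2.60, 1.68, 1.63, 1.59 and 1.42. Their lowest ratios over the alternatives were 1.11, 1.04, 0.780, 0.810 and 0.945, in that order. Of the 11 probe sets, 10 did not overlap between groups (90.9%, where 66.3% of all probe sets did so), but *Ppp2r5a* and *Ppp2r5c* hold 4 probe sets each. Above background on all 4 arrays were 90.9% of the 11, against 36.7% of all probe sets. The 4 probe sets of *Ppp2r5c*, the B56 gamma gene, had ratios of 1.86 to 2.60, and the 4 of *Ppp2r5a*, the B56 alpha gene, 1.63 to 1.98. The highest of *Ppp2r5c* read 4.6 and 7.81 in CUGBP1 IP versus 1.55 and 3.23 in control IgG (limma adjusted p = 0.181), a ratio of 4.00 against control IgG replicate 1 alone and 1.92 against replicate 2 alone. The one with the lowest adjusted p read 2.63 and 3.35 in CUGBP1 IP versus 1.16 and 1.41 in control IgG (limma adjusted p = 0.0550, ratio 2.33, log2 difference 1.21 with an SE of 0.38). Probe sets of 1 gene share their RNA and are not independent. The lowest ratio of the B56 genes was 1.42 at *Ppp2r5b*, with 1.79 and 2.35 in CUGBP1 IP versus 1.14 and 1.78 in control IgG.

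The 4 B55 genes had a median ratio of 1.27. *Ppp2r2a*, the B55 alpha gene, was the highest, with 2.46 and 3.21 in CUGBP1 IP versus 1.38 and 1.66 in control IgG (limma adjusted p = 0.148, ratio 1.87). *Ppp2r2c*, a form known from brain, was in background on all 4 arrays, with 1.20 and 1.21 in CUGBP1 IP versus 1.03 and 1.09 in control IgG. Of the calcium-binding B-double-prime genes, *Ppp2r3a* had a ratio of 1.29, with 1.51 and 1.56 in CUGBP1 IP versus 1.16 and 1.22 in control IgG. *Ppp2r3c* had a ratio of 1.21, with 1.11 and 1.65 in CUGBP1 IP versus 1.06 and 1.22 in control IgG, and its groups overlapped.

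In the PP4 family, whose regulatory subunits R2 and R3 form a complex with the catalytic subunit, *Ppp4r2* read 9.34 and 8.15 in CUGBP1 IP versus 2.13 and 4.44 in control IgG, a ratio of 2.66 and a log2 difference of 1.5 with an SE of 0.98 (limma adjusted p = 0.239). It was in the top 5%, with a ratio of 4.11 against control IgG replicate 1 alone and 1.97 against replicate 2 alone, while its complex partners *Ppp4c*, *Ppp4r3a* and *Ppp4r3b* had ratios of 1.56, 1.32 and 1.40. *Ppp4r4* was in background on all 4 arrays and was the other member with both CUGBP1 IP arrays below both controls, with 1.01 on both CUGBP1 IP arrays versus 1.03 and 1.06 in control IgG. The SAPS-domain regulators of PP6 had lower ratios than *Ppp6c*, 1.83 for *Ppp6r3*, 1.82 for *Ppp6r2* and 1.32 for *Ppp6r1*. *Ppp6r1* read 1.76 and 2.24 in CUGBP1 IP versus 1.19 and 1.84 in control IgG, and its groups overlapped.

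**Figure D4:**
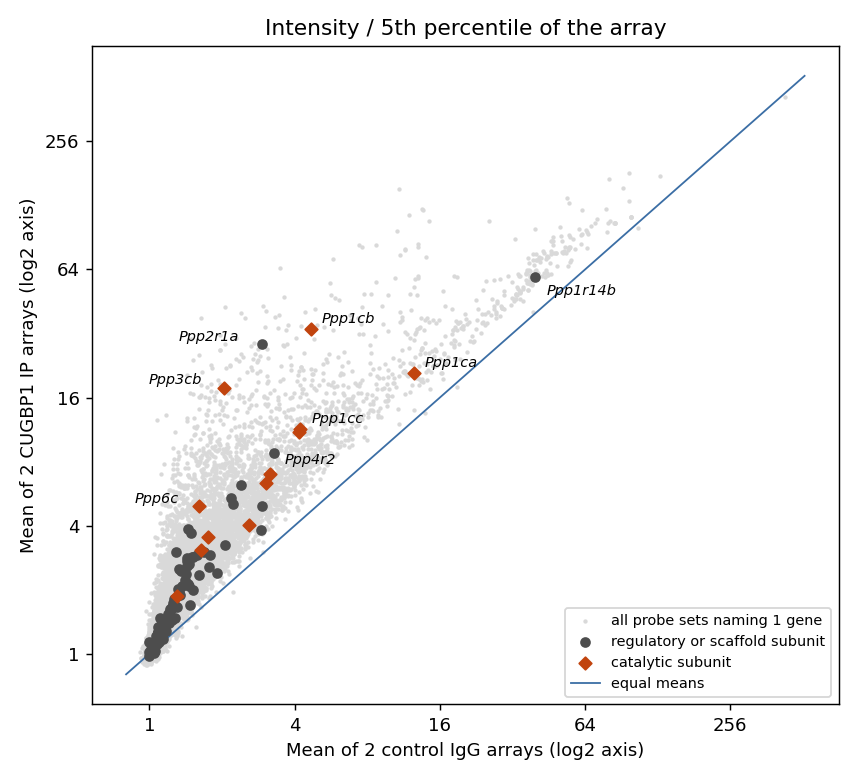
Mean of the 2 CUGBP1 IP arrays against the mean of the 2 control IgG arrays for each probe set (intensity divided by the 5th percentile of its array, log2 axes), with all probe sets that name 1 gene in grey, catalytic subunits as diamonds and other subunits as dark points. *Ppp2r1a*, *Ppp3cb* and *Ppp1cb* lie far above the line of equal means at ratios of 9.74, 8.70 and 7.23, and *Ppp1r14b* and *Ppp1ca* lie nearer to it at 1.48 and 1.68.

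The rank of most subunits depended on the processing, and that of the leading 3 changed little. *Ppp2r1a*, *Ppp3cb* and *Ppp1cb* were in the top 5% of ratios under each of 10 alternatives, at percentiles of at least 99.4, 99.1 and 98.6 of the probe sets. *Ppp6c* was in the top 5% under 8 of the 10, *Ppp4r2* under 6 and *Ppp1r12a* under 4. Under quantile normalization 39 members had a log2 difference above 0 and 46 below, while 82 were above 0 on the values as deposited and 60 with arrays scaled to their medians. As deposited, the ratio was above 1 for 96.5% of the members, against 93.3% of all probe sets, a share near the background. *Ppp1ca* and *Ppp4c* were at the 2.18th and 7.70th percentile of the ratio under quantile normalization. In that normalization limma called 2.05% of all probe sets higher. Of the 85 members it called 3 higher, *Ppp3cb* (log2 difference 1.77, adjusted p = 0.00316), *Ppp2r1a* (1.99, adjusted p = 0.00414) and *Ppp1cb* (1.42, adjusted p = 0.0330). Over all alternatives but the block by replicate number, the limma adjusted p of these 3 was under 0.05 only there, with arrays scaled to their medians for *Ppp3cb* (adjusted p = 0.0460) and, among probe sets above background on all 4 arrays, for *Ppp3cb* (adjusted p = 0.0255) and *Ppp2r1a* (adjusted p = 0.0358).

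**Figure D5:**
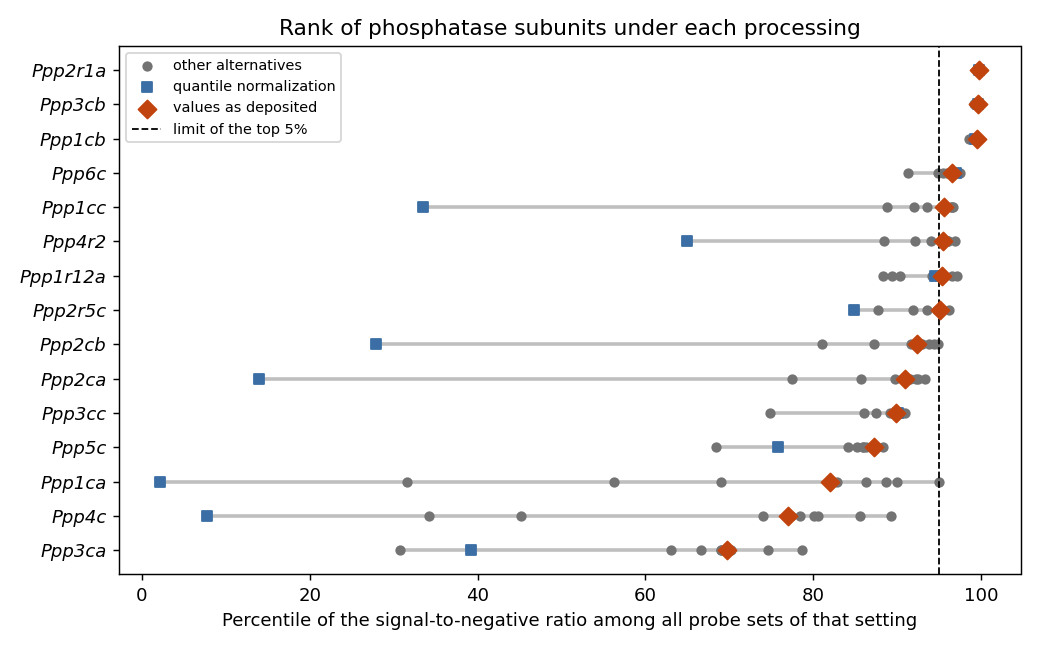
Percentile of the signal-to-negative ratio among all probe sets of the same setting for 15 subunits, with 1 point per processing alternative, squares for quantile normalization, diamonds for the values as deposited, grey lines for the range and a dashed line at the limit of the top 5%. *Ppp2r1a*, *Ppp3cb* and *Ppp1cb* stay at or above 98.6, whereas *Ppp1ca* reaches down to 2.18.

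Partners and regulators of these enzymes that carry other names were described by lists. A list of 16 metal-dependent phosphatases, which are enzymes themselves rather than partners, was set beside them. All 40 genes of the 4 lists (41 probe sets) were measured. limma called 2 of the 41 higher (4.88%) and 0 lower, where 1.95% of all probe sets were called higher and 0.138% lower. The groups did not overlap, with the immunoprecipitates above, for 38 (92.7%), where 66.3% of all probe sets did so, and the median ratio was 1.52, against 1.22 over all probe sets. The lists were also detected more often, with 58.5% above background on all 4 arrays, against 36.7% of all probe sets. Of the receptor probe sets used as background, 28.4% had both immunoprecipitates above both controls. The part of detection in the share of 92.7% was not tested, and the lists were chosen with earlier results known. *Rcan2*, an inhibitor of calcineurin, was called higher, with 3.83 and 2.62 in CUGBP1 IP versus 1.09 and 1.47 in control IgG (limma adjusted p = 0.0439, ratio 2.52). Its value of 1.09 on control IgG replicate 1 was not above the background limit there. The other calcineurin inhibitors *Rcan1* and *Rcan3* had ratios of 2.43 and 2.14, and the 5 calcineurin regulators a median of 2.14. *Ppm1k*, a mitochondrial phosphatase of branched-chain amino acid breakdown, was also called higher, with 1.86 and 2.06 in CUGBP1 IP versus 1.03 and 1.06 in control IgG (limma adjusted p = 0.0252, ratio 1.88). Both of its control values were under the background limits of 1.09 and 1.16, so its ratio was taken against background. The list genes were not followed through the alternative settings.

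The highest ratio of these lists was that of *Ppm1a*, a metal-dependent phosphatase known to act on Smad proteins, with 8.91 and 11.9 in CUGBP1 IP versus 1.78 and 3.44 in control IgG (limma adjusted p = 0.152, ratio 3.98). The 16 metal-dependent phosphatases had a median ratio of 1.45. Among 13 PP2A partners (14 probe sets, median 1.78), *Tiprl*, whose product binds the catalytic subunits of PP2A-like enzymes, had a ratio of 2.60 and was, with *Ppm1a*, 1 of the 2 in the top 5%. The 6 PP1 partners had a median of 1.45, with *Cdca2*, which targets PP1 to chromatin, at 2.45 and *Phactr2*, an actin-binding partner, lowest at 1.08.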

How the data were processed

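The labelled RNA of 4 immunoprecipitates (100 ng per array) had been hybridized to Affymetrix Mouse Gene 1.0 ST arrays. The authors deposited linear intensity values divided by the 5th percentile of each array; the program that summarised the probes is not given in the sources used here. Gene names came from the platform annotation, with 20959 symbols updated through a RefSeq gene table used for names only, and 1492 probe sets with several genes and 2639 with none were left out. Log2 values were compared with limma 3.58.1 in R 4.3.3 (lmFit, eBayes with an intensity trend, two-sided, no covariate), with Benjamini-Hochberg adjustment over 21044 probe sets. The trend gives probe sets of similar brightness a similar error. The script was tested on simulated data. All catalytic subunits, called members, members in the top 5% and the highest and lowest ratio of each class were named. The members and lists were chosen with earlier results of these data known. Alternatives were median scaling, quantile normalization, an offset of 1, a background filter, no trend, 1 probe set per gene, a block by replicate number and each array left out. The number of arrays limits the precision.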

Additional observations from a re-analysis of the deposited data

How the results depend on the processing

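Against 0 of 85 members called on the values as deposited (411 probe sets higher and 29 lower in all), limma called 8 members higher with arrays scaled to their medians (1362 and 40), 3 under quantile normalization (431 and 12), 3 with an offset of 1 (763 and 38) and 2 of 55 above background on all 4 arrays (270 and 0), and 0 were lower. The shares of all probe sets called higher were 6.47%, 2.05%, 3.63% and 3.49% in these settings, in that order. With the replicate number as a block limma called 58 of 85 members (11809 and 40), where 56.1% of all probe sets were called higher. The deviations of same-numbered arrays correlated at 0.639, but nothing in the labels pairs them and there are only 2 pairs. limma called 0 members with 1 probe set per gene, without the trend and in each fit without 1 array (lowest 0 and highest 0), where 21, 26 and 0 to 40 had an unadjusted p under 0.05. Without the trend and in each fit without 1 array limma called 0 of all 21044 probe sets, and with 1 probe set per gene 377 higher and 26 lower of 19452, so the 0 without the trend or without 1 array says nothing of the members.

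The top 5% held 9 of 85 members as deposited, 5 of 85 under quantile normalization, 3 of 55 after the background filter and 6 to 8 of 85 without 1 array. The median log2 difference of all probe sets was 0.29 as deposited, 0.00070 with median scaling, -0.014 under quantile normalization, 0.16 with the offset and 0.73 after the filter. Relative to it, quantile normalization gave -0.024 for all subunits (0.25 as deposited), -0.023 for PP1 (0.075), -0.029 for PP2A (0.59), -0.038 for calcineurin (0.28), -0.12 for PP4 (0.35), 0.10 for PP5 (0.64), 0.17 for PP6 (0.59), -0.050 for catalytic (0.95) and -0.023 for regulatory and scaffold subunits (0.15). The filter gave -0.066 for PP1, 0.16 for PP2A, 0.15 for PP6 and -0.040 for regulatory and scaffold subunits, which ranged between 0.066 and 0.27 without 1 array. The ranges without 1 array were 0.42 to 1.57 for catalytic subunits, 0.093 to 0.39 for all subunits, 0.0093 to 0.13 for PP1, 0.39 to 0.72 for PP2A, 0.21 to 0.44 for calcineurin, 0.043 to 0.69 for PP4, 0.38 to 0.92 for PP5 and 0.47 to 0.73 for PP6. The lowest was without control IgG replicate 1 in each of these. The cause was not tested.

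Of 341 alternative values of 32 named probe sets, 283 kept direction and side of the threshold, 32 newly passed it and 26 changed sign. The fits without the trend and without 1 array called 0 of all 21044 probe sets, so no value there passed the threshold. Many of those that newly passed came from the replicate block, which called 56.1% of all probe sets higher. The count of 283 is therefore no measure of stability. Under quantile normalization the log2 difference was -0.53 for *Ppp1ca*, -0.076 and -0.077 for the probe sets of *Ppp1cc*, -0.20 for *Ppp2ca*, -0.094 for *Ppp2cb*, -0.27 for *Ppp4c*, -0.052 for *Ppp3ca*, -0.13 for *Ppp2r1b*, -0.042 for *Ppp2r2a*, -0.073 for *Ppp2r5b*, -0.081 for *Ppp2r3a*, -0.023 for *Ppp2r3c*, -0.23 for *Ppp6r1*, -0.11 for *Ppp1r9a*, -0.037 for *Ppp1r17* and -0.10 for the lowest *Ppp1r12b* probe set. With median scaling it was -0.24 for that *Ppp1r12b* probe set, -0.24 for *Ppp1r9a*, -0.27 for *Ppp1r17*, -0.037 for *Ppp2r3c* and -0.10 for *Ppp2r2c*. Without 1 array it ranged between -0.095 and 0.18 for that *Ppp1r12b* probe set, -0.0064 and 0.099 for *Ppp1r9a*, -0.021 and 0.065 for *Ppp1r17*, -0.035 and 0.54 for *Ppp2r3c* and -0.072 and 0.015 for *Ppp3r2*.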
